A study of Mus musculus with 28 samples.

Results

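Krüppel-like factors are transcription factors that bind GC-rich and CACCC-containing DNA through zinc fingers at their C-terminal end. The 10 family members described here are *Klf2*, *Klf3*, *Klf4*, *Klf5*, *Klf6*, *Klf7*, *Klf10*, *Klf12*, *Klf13* and *Klf15*, out of 49477 genes listed for both batches of amygdala RNA-seq libraries. All 10 passed the filter on low values (10 or more counts per mouse on average), and 16266 genes were tested in all. *Klf2* was chosen by its measured counts in these 28 mice, which were higher in those that drank alcohol, so its differences between the groups are given as a description without a test. The other 9 were taken to see whether the family shared its pattern.

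The libraries came from adult female C57BL6/J mice, and the tissue was the amygdala, collected as micropunches that covered its basolateral and central parts. The Water group (n = 10) drank only water, the Acute group (n = 9) had 20% alcohol on a single occasion, and the Chronic group (n = 9) had it on alternate days for about a month. All mice were housed singly, had a pair of drinking tubes and were killed on the day after the last drinking session began. Acute and Chronic mice kept their alcohol and water tubes until they were anesthetized. The labels name a 1st batch, with 4, 4 and 3 mice of the Water, Acute and Chronic groups, and a 2nd batch with 6, 5 and 6. No transgene or deletion was involved. Total counts per mouse were 20004380 to 22474159 in the Water group, 20117248 to 22548961 in the Acute group and 20135215 to 22569562 in the Chronic group. Each mouse is one library, so the p-values below measure the spread between mice. Summed neuron markers stood between 5490 and 6530 CPM (counts scaled to library size) in every mouse, with none of the 8 at 0. With both batches together, the sums that varied most within the groups were those of oligodendrocyte, choroid plexus and blood cell markers. They ran from 1250 to 3260, from 17.9 to 4370 and from 88.6 to 199 CPM. The oligodendrocyte marker *Mbp* ran from 1489 to 30060 scaled counts in Water mice. The SE of its Chronic against Water log2 fold change was 0.062 with batch in the model. Its spread thus lay largely between the batches.

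*Klf2* and *Klf4* are known in endothelial cells as factors induced by blood flow. The kinase cascade from MEKK3 through MEK5 to ERK5 activates MEF2 factors on the *Klf2* promoter, and the cerebral cavernous malformation (CCM) proteins hold this cascade back. *Klf2* also keeps T cells quiescent and restrains inflammatory genes in monocytes. Among the others, *Klf3* and *Klf12* recruit the corepressor CtBP, *Klf13* recruits Sin3A, *Klf10* responds to TGF-beta, *Klf15* responds to glucocorticoids, and *Klf7* and *Klf6* take part in axon growth.

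The promoter windows of *Klf2* and *Klf4* are shown because these 2 members had the largest differences between Chronic and Water mice. They were read from RefSeq on GRCm38.p6, cover 221 bases from 250 to 30 bases before the RefSeq start, and run 5′ to 3′ on the strand of the gene. The *Klf2* window is chr8:72318812-72319032 on the plus strand and the *Klf4* window is chr4:55532505-55532725 on the minus strand. Capitals mark GC boxes, the letters GGGCGG on either strand, and in *Klf2* also a match to the MEF2 motif.
Klf2: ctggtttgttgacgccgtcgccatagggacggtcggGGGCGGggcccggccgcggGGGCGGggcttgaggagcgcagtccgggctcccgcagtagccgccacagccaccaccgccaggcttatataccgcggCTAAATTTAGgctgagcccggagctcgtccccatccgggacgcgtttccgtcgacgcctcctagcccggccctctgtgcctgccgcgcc
Klf4: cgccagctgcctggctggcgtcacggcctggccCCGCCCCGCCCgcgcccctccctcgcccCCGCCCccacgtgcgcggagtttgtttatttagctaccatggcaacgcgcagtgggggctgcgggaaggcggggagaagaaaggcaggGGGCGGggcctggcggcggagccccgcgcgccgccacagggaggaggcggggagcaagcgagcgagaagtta

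The *Klf2* window held 2 GC boxes, at -214 to -209 and at -195 to -190 from the RefSeq start, and the MEF2 match lay at -118 to -109. The *Klf4* window held 4 GC boxes, of which the 2 farthest from the start overlap by 1 base, and it held no MEF2 match. RefSeq promoters were at hand for 8 of the 10 members, the exceptions being *Klf5* and *Klf10*. A GC box stood in 7 of these 8 windows, all but that of *Klf12*, and in 28.7% of 32851 windows of the same length. The 7 windows were also rich in GC, from 60.2% to 79.2% of bases, against 49.8% in *Klf12* and a median of 52% over all windows. A MEF2 match stood in 1 of the 8, that of *Klf2*, and in 2.61% of all windows. Neither the cyclic AMP response element TGACGTCA nor the CArG box of serum response genes was found in the 8 windows on either strand, and these were in 1.16% and 1.3% of all windows. The CACCC core was in 4 of the 8 windows, none of them that of *Klf2* or *Klf4*, against 48% of all windows. These matches describe the letters of the windows and not binding.

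*Klf2* (ENSMUSG00000055148, chromosome 8, 72319033 to 72321656, plus strand, GRCm38) is a protein-coding gene with 1 annotated transcript of 1847 bases, and it shares no exon and no 31-base stretch with another gene. In Water mice its normalized count had a lowest value of 87.25, a median of 115.4 and a highest of 125.8. In Acute mice the values were 123.3, 138.7 and 159, and in Chronic mice 140.9, 161 and 193.1. The lowest Chronic mouse stood above the highest Water mouse, a lack of overlap seen for 0.0184% of all genes in this comparison, whereas the Acute range overlapped both of the others. Normalized counts here are counts scaled by the TMM factors to the mean library size. In bulk tissue, a change in the number of cells that carry a transcript and a change in its amount per cell cannot be told apart.

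Group means were 111.6 ± 11.46 (SD, n = 10) for Water, 139.8 ± 12.25 (SD, n = 9) for Acute and 163.3 ± 15.94 (SD, n = 9) for Chronic mice. With batch in the model, *Klf2* was 1.26-fold higher in Acute than in Water mice (log2 fold change 0.33, SE 0.07, 95% interval 0.20 to 0.47). It was 1.45-fold higher in Chronic than in Water mice (log2 fold change 0.54, SE 0.07, interval 0.41 to 0.67). Between Chronic and Acute mice the log2 fold change was 0.21 (SE 0.07, interval 0.07 to 0.34). The 3 comparisons share mice, so their values stand side by side and are not independent of each other.

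The difference from Water was seen in each batch. In the first batch, the Water, Acute and Chronic means of *Klf2* were 104.7 ± 14.09 (n = 4), 140.1 ± 7.495 (n = 4) and 149.7 ± 8.158 (n = 3). In the second batch they were 116.2 ± 7.318 (n = 6), 139.5 ± 16.06 (n = 5) and 170.1 ± 14.62 (n = 6). Fitted in each batch alone, the log2 fold change of Chronic against Water was 0.51 and 0.55, and that of Acute against Water was 0.42 and 0.26. Chronic against Acute gave 0.10 and 0.29.

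**Figure D1:**
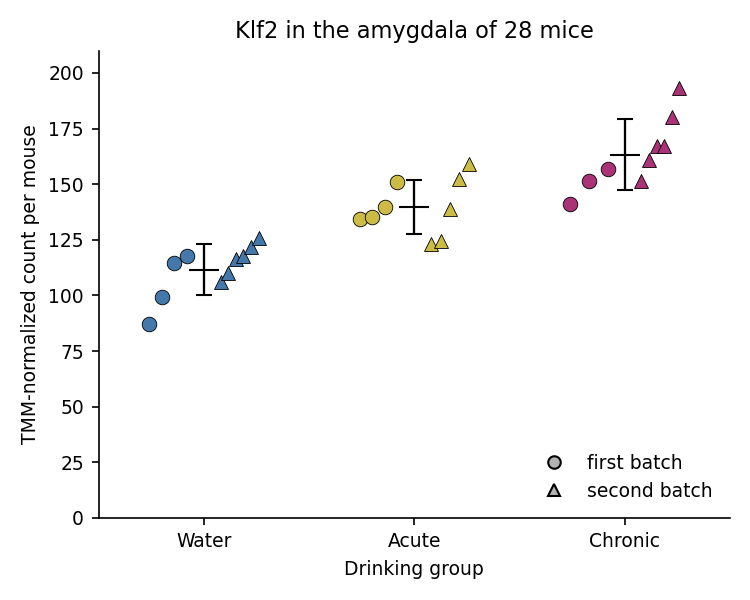
TMM-normalized *Klf2* count of each of the 28 mice by drinking group, with circles for the first batch and triangles for the second. Horizontal bars are group means and the error bars 1 SD; all 9 Chronic mice lie at or above 140.9 and all 10 Water mice at or below 125.8.

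The plot of *Klf2* by mouse shows the order of the group means in each batch. Its lowest point, the Water mouse at 87.25, belongs to the first batch. Leaving out any 1 of the 28 mice kept the log2 fold change of Acute against Water between 0.30 and 0.36 and that of Chronic against Water between 0.51 and 0.56.

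*Klf4*, a flow-induced endothelial factor that also serves in the reprogramming of cells to pluripotency, came next. Its normalized count was 45.57, 79.55 and 99.82 (lowest, median and highest) in Water mice. It was 68.25, 83.49 and 104.3 in Acute mice and 75.27, 92.37 and 117.3 in Chronic mice. The 3 ranges overlapped, and the means were 76.68 ± 16.53, 85.32 ± 11.11 and 95.35 ± 13.88 (SD). The log2 fold change of Chronic against Water was 0.32 (SE 0.11, interval 0.09 to 0.55), 9 of 9 Chronic mice stood above the Water mean after batch removal, and the adjusted p was 0.293 (unadjusted 0.0085, edgeR quasi-likelihood test, adjusted over all 16266 genes). This difference did not pass the threshold of 0.05 on the adjusted p. For Acute against Water it was 0.15 (interval -0.08 to 0.38, adjusted p = 0.69), and for Chronic against Acute 0.17 (interval -0.07 to 0.41, adjusted p = 0.998). The 2 lowest *Klf4* values, both in Water mice of the second batch, were 45.6 and 52.9, and Chronic differed from Water by 0.18 and 0.40 in the 2 batches, each fitted alone.

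*Klf6*, a broadly expressed early-response member linked to axon growth, was at 712.5, 864.5 and 1061 in Water mice, 692.5, 911.4 and 1035 in Acute mice and 840.5, 881.6 and 1038 in Chronic mice. Its log2 fold change was 0.04 for Acute (interval -0.08 to 0.16, adjusted p = 0.864) and 0.10 for Chronic against Water (interval -0.02 to 0.22, adjusted p = 0.585). Its ranges overlapped throughout, and neither difference passed the test. *Klf2*, *Klf4* and *Klf6* were the members with positive values in both comparisons with Water.

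*Klf5*, which drives proliferation in epithelial and smooth muscle cells, had means of 328 ± 26.95 in Water mice, 328.7 ± 46.69 in Acute mice and 298.5 ± 44.68 in Chronic mice. Its log2 fold change of Chronic against Water was -0.13 (interval -0.28 to 0.02, adjusted p = 0.556). *Klf10*, the TGF-beta inducible early gene, had means of 998.7 ± 201.4, 916.5 ± 105.7 and 889.6 ± 158.1. In Water mice it varied from 707.1 to 1412, and its difference from Water was -0.13 in Acute (adjusted p = 0.723) and -0.16 in Chronic mice (adjusted p = 0.617). The groups overlapped for both genes, and neither passed the test.

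The CtBP-recruiting repressors had overlapping groups as well. *Klf3* had means of 606.5 ± 43.83, 583.7 ± 32.52 and 601.8 ± 43.28 in Water, Acute and Chronic mice, with log2 fold changes of -0.06 and -0.01 against Water (adjusted p = 0.679 and 0.974). *Klf12* had means of 632.6 ± 88.55, 575.7 ± 70.16 and 623.6 ± 96.21, with log2 fold changes of -0.13 and -0.02 (adjusted p = 0.624 and 0.946). In Acute mice *Klf12* was above the Water mean in 1 of 9 mice after batch removal, and its interval, -0.29 to 0.04, still held 0.

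*Klf7*, which promotes the growth of sensory axons, had means of 1159 ± 88.99, 1124 ± 80.79 and 1147 ± 98.63. Its log2 fold changes were -0.04 for Acute and -0.01 for Chronic against Water (adjusted p = 0.818 and 0.951). Of its 31-base stretches, 38.718% also occur in another gene, *Zfp46* or *Gm26649*, and *Gm26649* and *Gm13748* overlap it on the opposite strand. Since no source used here states that strand was used in counting, reads of *Klf7* and *Gm26649* may not have been separated there. *Klf3* likewise overlaps an opposite-strand gene, *Gm20033*, and 4.532% of its 31-base stretches occur in another gene, as do 7.022% of those of *Klf12*. *Klf13*, known in lymphocytes for its action on the chemokine gene *Ccl5*, had means of 3680 ± 305.8, 3540 ± 376.7 and 3642 ± 304.3, with differences of -0.05 and -0.03 (adjusted p = 0.764 and 0.892). *Klf15*, a glucocorticoid-induced regulator of amino acid metabolism, had means of 288.9 ± 27.02, 286.7 ± 30.01 and 278.8 ± 28.66, with differences of -0.01 and -0.05 (adjusted p = 0.974 and 0.84). For *Klf3*, *Klf7* and *Klf13* the intervals of both comparisons with Water lay within 0.15 of 0 on the log2 scale.

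**Figure D2:**
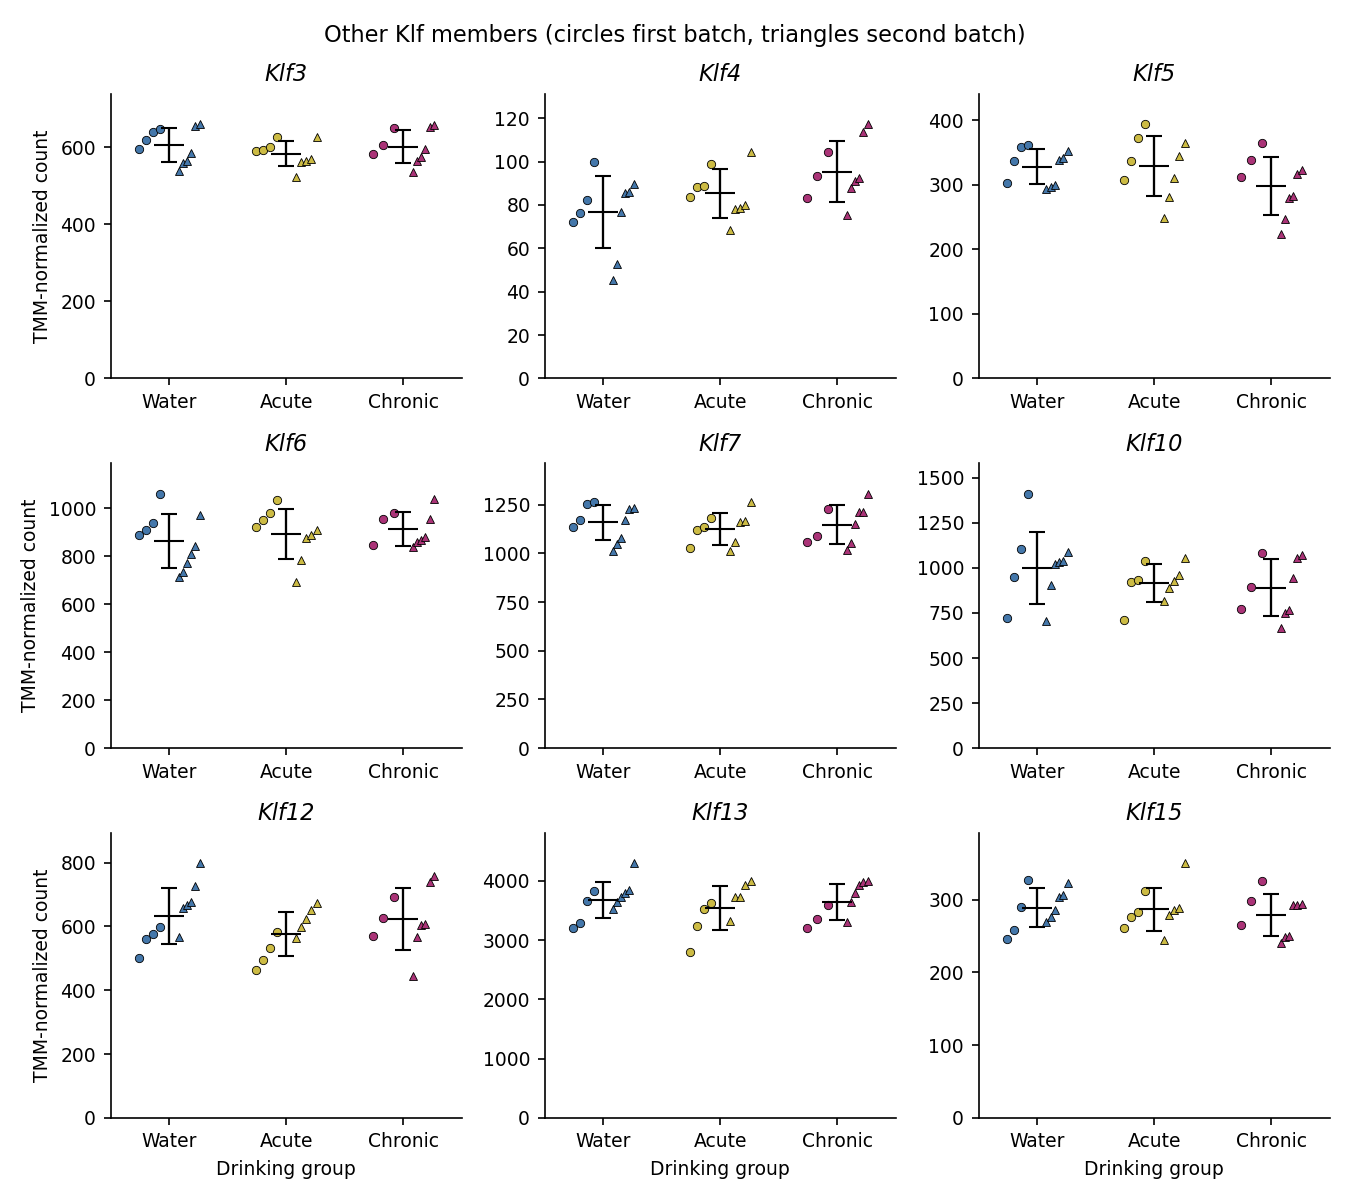
TMM-normalized count of each mouse for the 9 members other than *Klf2*, by drinking group, with circles for the first batch and triangles for the second; bars are means and error bars 1 SD, and every vertical axis starts at 0. The groups overlap in all 9 panels; the *Klf4* means step from 76.68 to 85.32 to 95.35.

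Of the 9 members other than *Klf2*, 0 passed an adjusted p of 0.05 in Acute against Water, where 0% of all tested genes did. In Chronic against Water 0 of 9 passed, against 0.0184% of all genes, and in Chronic against Acute 0 of 9 passed, against 0%. At an unadjusted p under 0.05 the counts were 0, 1 (*Klf4*) and 0 of 9, where 9.52%, 10.5% and 4.44% of all genes stood. DESeq2 with batch as a covariate also called 0 in each comparison, although it gave *Klf4* no adjusted p against Water. Against Water, 2 of the 9 had positive and 7 negative values in both drinking groups, with a median log2 fold change of -0.04 in Acute and -0.02 in Chronic mice. Over all genes the medians were 0.001 and 0.002, and 50.6% and 51% of genes had positive values. In Chronic against Acute 6 of the 9 were positive, against 49.4% of genes.

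**Figure D3:**
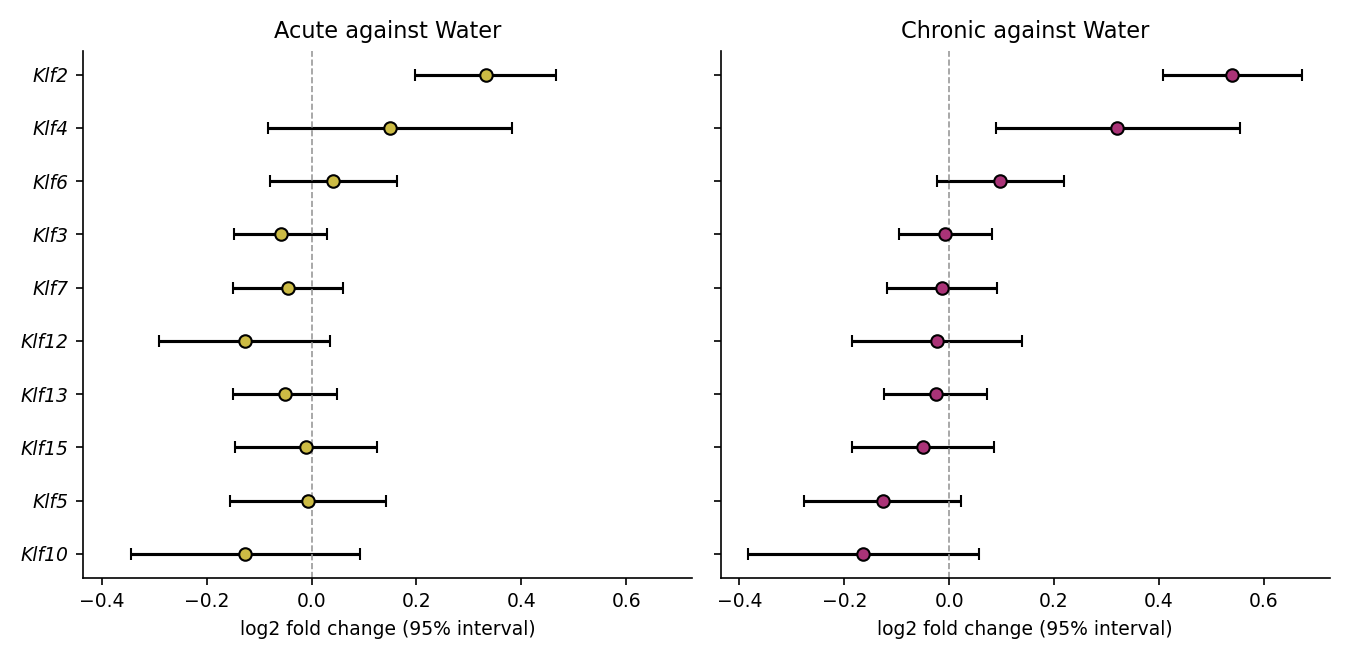
Log2 fold change of the 10 members against Water in Acute (left) and Chronic mice (right), as points with 95% intervals from the fit over 28 mice; the dashed line marks no difference. *Klf2* lies at 0.33 and 0.54, *Klf4* at 0.15 and 0.32, and the remaining 8 lie between -0.16 and 0.10.

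The plot of fold changes orders the members by their Chronic value. For the 9 members other than *Klf2*, the response was not shown to differ between the batches, with 0 past an adjusted p of 0.05 for either drinking group, where 0% of all tested genes passed for Acute and 0.00615% for Chronic mice. At an unadjusted p under 0.05 the members' count was also 0 for either group, against 4.13% and 6.15% of all genes. The lowest unadjusted p of these terms was 0.0601, for *Klf12* in Chronic mice (difference of the batches -0.31, SE 0.16, adjusted p = 0.824, edgeR quasi-likelihood test), whose Chronic mean was above the Water mean in the 1st batch (629.8 ± 59.86 against 558.9 ± 40.64) but below it in the 2nd (620.5 ± 115.5 against 681.7 ± 76.73), with overlapping mice in both.

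The members differed widely in level. In Water mice, per kilobase of exon, *Klf13* stood highest at 23.6 ± 1.96 CPM per kb (SD, n = 10). *Klf10* (11.5 ± 2.33), *Klf6* (9.51 ± 1.22), *Klf7* (6.88 ± 0.529), *Klf15* (5 ± 0.468) and *Klf12* (4.38 ± 0.612) followed on the same scale. *Klf5* (3.05 ± 0.25), *Klf2* (2.92 ± 0.3) and *Klf3* (2.61 ± 0.188) were close together, and *Klf4* was lowest at 1.21 ± 0.262. The ranges of neighbours overlapped for *Klf10* and *Klf6*, *Klf15* and *Klf12*, *Klf5* and *Klf2*, and *Klf2* and *Klf3*, and these are not ordered beyond their spread. The order depends on the length used: by the median transcript length *Klf13* kept first place and *Klf2* was last of the 10. By that length *Klf5*, *Klf2* and *Klf3* were no longer close, at 5.11, 2.92 and 28.6 CPM per kb. In total counts, *Klf2* and *Klf4* rest on few reads, 87 to 187 and 43 to 116 per mouse.

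*Klf2* and *Klf4* were also the members with the highest GC content, 61.6% and 62.5% of transcript bases, against a median of 50.4% over the tested genes. The 781 tested genes with at least 60% GC had a median log2 fold change of 0.06 in Chronic against Water, with 76.3% above 0, whereas genes under 45% GC had a median of -0.04. In Acute against Water the medians of these classes were 0.02 and -0.02. With offsets that remove the trend of each mouse on GC content and length, the value of *Klf2* was 0.28 in Acute and 0.45 in Chronic against Water, and that of *Klf4* was 0.10 and 0.25 (adjusted p = 0.676 for Chronic).

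Within 100 kb of *Klf2*, 4 other genes were tested. Their log2 fold changes of Chronic against Water ran from -0.01 to 0.16, with 0 of 4 at an unadjusted p under 0.05 and a lowest adjusted p of 0.73. In Acute against Water, where no tested gene passed the adjusted threshold, they ran from -0.04 to 0.46, and 1 of 4 had an unadjusted p under 0.05, *Gm10282* (log2 fold change 0.46, SE 0.17, edgeR p = 0.0125, adjusted p = 0.462).

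Endothelial cells and microglia are cell types in which *Klf2* is known to be expressed. The summed level of 12 endothelial markers was 222, 257 and 273 CPM (lowest, median and highest) in Water mice, 247, 252 and 278 in Acute mice and 243, 259 and 269 in Chronic mice, with none of the 12 at 0 in any mouse. The 10 microglia markers summed to 337, 358 and 397 CPM in Water mice, 355, 367 and 396 in Acute mice and 345, 358 and 390 in Chronic mice. Both sums overlapped between the groups, and 0 of their 22 genes passed the adjusted test in any comparison. In Chronic against Water 8 of the 12 endothelial markers had positive and 4 negative values, with a median of 0.03, and the 10 microglia markers split into 4 and 6, with a median of -0.01. The most highly counted endothelial markers, *Flt1* and *Itm2a*, were at -0.04 and 0.03, and the microglia marker *Csf1r* was at 0.03. The endothelial genes with the lowest adjusted p were *Ly6c1* (log2 fold change 0.13, adjusted p = 0.397) and *Cldn5*, a tight junction protein (0.13, adjusted p = 0.419), in Chronic against Water. Blood cell markers summed to 88.6 to 199 CPM in Water mice, 93 to 151 in Acute mice and 101 to 147 in Chronic mice.

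The variation of *Klf2* among mice of the same batch and group was then set against the other members and 3 marker scores, 12 relations in all over 28 mice. Pearson's r was highest with *Klf6* (r = 0.276, permutation p = 0.214; Spearman's rho = 0.185, p = 0.408; r = 0.113 without the 2 mice farthest from the *Klf6* median). With *Klf4* it was 0.197 (permutation p = 0.33; rho = 0.161, p = 0.46; r = 0.163 without 2 mice). With the endothelial score it was -0.051 (permutation p = 0.862; rho = 0.038, p = 0.873), with the microglia score 0.028 (p = 0.892; rho = -0.009, p = 0.965) and with the immediate early gene score 0.132 (p = 0.466; rho = 0.12, p = 0.538). Without the 2 farthest mice these 3 were 0.18, -0.057 and 0.27. None of the 12 passed, with adjusted p from 0.699 to 0.954 for Pearson's r and from 0.92 to 0.993 for rho.

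Across all 28 mice, with only batch removed, the 5 genes whose log2 CPM was most like that of *Klf2* among 16265 were *Haghl* (r = 0.708), *3110082I17Rik* (0.687), *Inafm1* (0.687), the cytoplasmic actin *Actg1* (0.684) and *Wscd1* (0.677). The 5 most opposed were the chromatin remodeller *Chd1* (-0.777), *Arhgap20* (-0.725), *Gm26691* (-0.708), the histone demethylase *Kdm3a* (-0.699) and the RNA-binding protein *Celf1* (-0.697). These r values describe libraries that share drinking groups and depth. Within batch and group, r was 0.104 for *Haghl*, 0.108 for *Inafm1* and -0.011 for *Kdm3a*. It was 0.53 for *3110082I17Rik*, 0.51 for *Actg1*, 0.392 for *Wscd1* and -0.497 for *Chd1*. For *Arhgap20*, *Gm26691* and *Celf1* it was -0.447, -0.391 and -0.354. All these genes were picked as extremes of r over the same mice, which also draws their r within batch and group away from 0. These values were not tested. Among the members, *Klf4* (0.525) and *Klf6* (0.409) were most like *Klf2*, and the other 7 lay between -0.234 and -0.036. These values hold the group differences by which *Klf2* was chosen, and within batch and group r was 0.197 and 0.276, as given above.

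Other Krüppel-like and related genes were read from the same fit. Of 7 further *Klf* genes, 4 were tested (*Klf8*, *Klf11*, *Klf14* and *Klf16*) and 0 passed. *Klf8*, a CtBP-binding repressor, was at 127.4 ± 10.4 in Water mice, 112.9 ± 12.1 in Acute mice and 113.9 ± 9.8 in Chronic mice, with log2 fold changes of -0.17 and -0.16 (adjusted p = 0.462 and 0.374). *Klf1* and *Klf17* were under the filter. *Klf9*, a glucocorticoid- and thyroid hormone-induced member of neurons, was listed for the second batch only. There its normalized count was 2675, 3289 and 3421 in Water (n = 6), 3014, 3209 and 3380 in Acute (n = 5) and 2683, 2924 and 3332 in Chronic mice (n = 6). Its log2 fold change was -0.01 for Acute (adjusted p = 0.997) and -0.11 for Chronic against Water (interval -0.23 to 0.02, adjusted p = 0.461, edgeR on that batch alone, where 0% and 0.0243% of 16435 genes passed).

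The Sp factors bind the same GC boxes. Of 9, 8 were tested and 0 passed. The lowest adjusted p was that of *Sp4*, a neuronal member, at 712.4 ± 40.3 in Water and 631.7 ± 63.8 in Chronic mice (log2 fold change -0.17, SE 0.04, adjusted p = 0.18). *Sp3* was at -0.10 (adjusted p = 0.341) and the osteoblast factor *Sp7* at 0.29 (adjusted p = 0.243) in the same comparison. In Acute against Water *Sp4* was at -0.03 (adjusted p = 0.853) and *Sp3* at -0.05 (adjusted p = 0.674). *Sp7* was at 0.24 (adjusted p = 0.462), and *Sp8* and *Sp9*, factors of interneuron development, were at 0.43 and 0.17 (adjusted p = 0.514 and 0.502).

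The pathway that acts on *Klf2* in endothelium was covered by 14 genes, all tested. In Chronic against Water 6 had positive and 8 negative values, the median was -0.02, and 0 passed. *Map3k3*, which encodes MEKK3, was at -0.11 (adjusted p = 0.423) and its relative *Map3k2* at -0.14 (adjusted p = 0.323). *Mapk7*, which encodes ERK5, was at 0.002 (adjusted p = 0.993), and *Mef2c* and *Mef2d*, the 2 most highly counted, were at -0.09 and 0.01. In Acute against Water the CCM gene *Krit1* was at -0.11 (adjusted p = 0.447).

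Of 11 endothelial genes known as targets of *Klf2*, 9 were tested and 0 passed. In Chronic against Water 4 had positive and 5 negative values, with a median of -0.03, and in Acute against Water the split was 6 and 3, with a median of 0.015. The most highly counted were the sphingosine-1-phosphate receptor *S1pr1*, at 0.01 in Acute and 0.03 in Chronic mice (adjusted p = 0.959 and 0.786), and the adhesion molecule *Vcam1*, at 0.01 and 0.07 (adjusted p = 0.978 and 0.852). Tissue factor (*F3*) was at 0.08 and -0.03 (adjusted p = 0.595 and 0.867). *Edn1*, the endothelin gene it is known to repress, was at 34.27 ± 9.37 in Water and 42.04 ± 7.35 in Chronic mice (0.30, adjusted p = 0.436), and at 0.11 in Acute against Water (adjusted p = 0.833).

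Cofactors of the family numbered 13, all tested, and 0 passed. In Chronic against Water the corepressor *Sin3a* was at -0.12 (adjusted p = 0.192), the deacetylase *Hdac2* at -0.10 (adjusted p = 0.222), the acetyltransferase *Ep300* at -0.09 (adjusted p = 0.461) and *Ctbp1* at 0.06 (adjusted p = 0.474). *Ncor1* was at -0.09 in Acute against Water (adjusted p = 0.474). The ubiquitin ligase subunit *Fbxw7* was at 0.01 and -0.02 in Acute and Chronic against Water.

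Glucocorticoids induce *Klf9* and *Klf15*. Of 14 other glucocorticoid-responsive genes, all tested, 0 passed. In Acute against Water 10 had positive and 4 negative values, with a median of 0.10, and in Chronic against Water the split was 7 and 7, with a median of 0.001. *Nfkbia*, the NF-kappa-B inhibitor, was at 285.1 ± 28.8 in Water mice, 340.7 ± 32 in Acute mice and 327.7 ± 24.2 in Chronic mice (0.26 and 0.20, adjusted p = 0.194 and 0.239). The metallothionein *Mt1* was at 0.19 and 0.18 (adjusted p = 0.348 and 0.222), *Tsc22d3* at 0.16 and 0.09 and *Cdkn1a* at 0.22 and 0.10. The clock gene *Per1* had negative values, -0.14 and -0.11 (adjusted p = 0.457 and 0.478). *Fkbp5*, a classical target, was at 0.05 and -0.01.

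Of 13 immediate early genes tested, 0 passed. *Btg2* was at 366.3 ± 88.8 in Water mice, 493.6 ± 93 in Acute mice and 410.4 ± 72.1 in Chronic mice (0.42 and 0.20, adjusted p = 0.239 and 0.519). *Egr1*, the most highly counted, was at -0.03 and 0.01. *Egr3*, the next by count, was at -0.11 and -0.05. The study picked *Btg2*, *Nfkbia*, *Mt1*, *Sp4*, *Hdac2*, *Sin3a*, *Haghl*, *Inafm1*, *Wscd1*, *Chd1*, *Arhgap20*, *Kdm3a* and *Celf1* from these mice, so their values are no independent evidence. The 10 TGF-beta genes, the pathway that induces *Klf10*, had medians of -0.03 and -0.04 against Water, and 0 passed. The most highly counted, *Smad3* and *Skil*, were at -0.06 and -0.01 in Acute and 0.09 and -0.08 in Chronic mice, and *Smad2* was at -0.15 and -0.08 (adjusted p = 0.448 and 0.664).

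These counts of 0 are at an adjusted p under 0.05 in edgeR. At an unadjusted p under 0.05, in Acute and in Chronic against Water, the counts were 1 and 1 of 4 for the further *Klf* genes, 3 and 3 of 8 for the Sp genes and 2 and 2 of 14 for the kinase pathway. For the *Klf2* targets the Chronic count was 1 of 9 (*Edn1*). The counts were 3 and 4 of 13 for the cofactors, 5 and 2 of 14 for the glucocorticoid genes, 1 and 0 of 13 for the immediate early genes, and 1 and 0 of 10 for the TGF-beta genes. The endothelial markers gave 1 and 2 of 12 and the microglia markers 1 and 0 of 10, where 9.52% and 10.5% of all tested genes stood. The plot of the gene lists draws these values list by list.

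**Figure D4:**
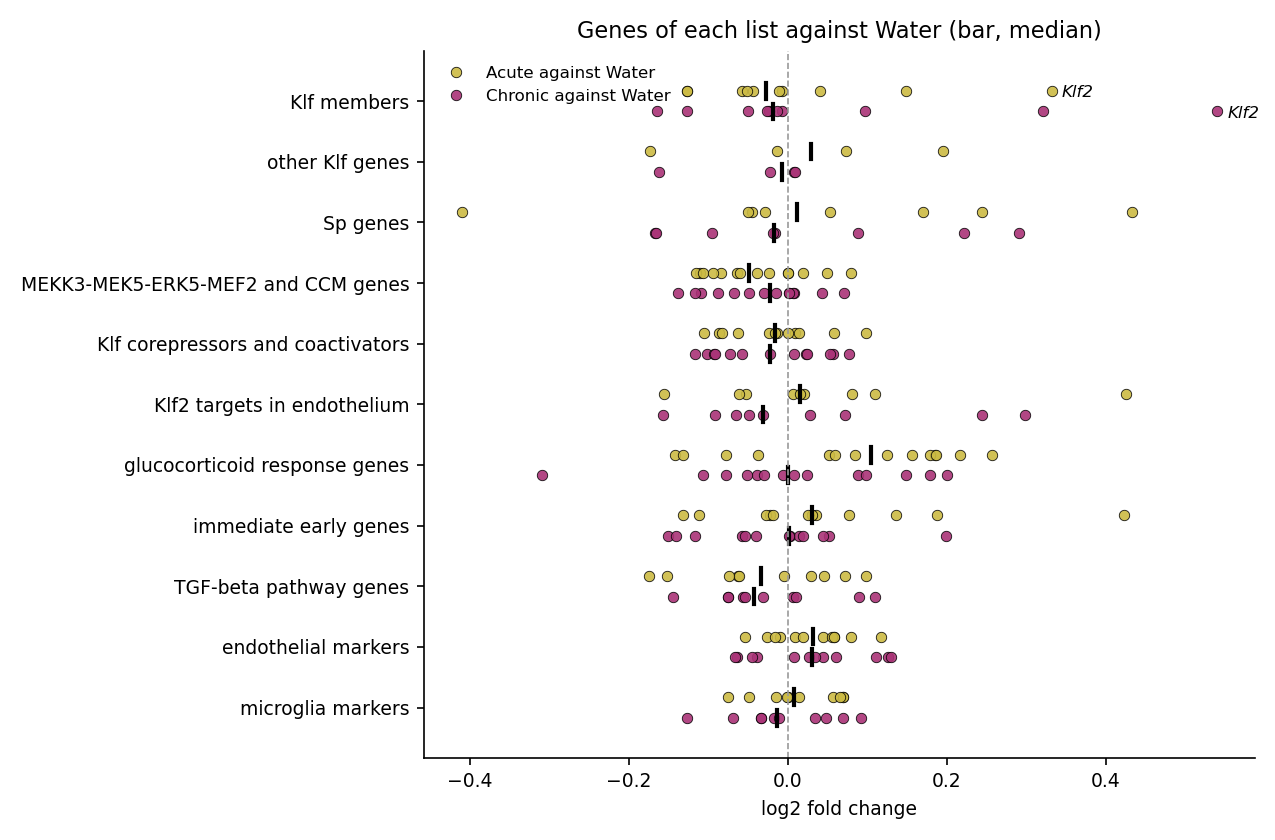
Log2 fold change against Water of each tested gene in 11 lists (rows), with Acute in yellow and Chronic in purple; the black bar is the list's median and the dashed line marks no difference. *Klf2* at 0.54 in Chronic mice lies farthest to the right of all the genes drawn.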

How the data were processed

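RNA of 28 amygdala samples was sequenced as paired-end reads. The authors ran Salmon 0.14.1 on a GRCm38 transcriptome and tximport for gene-level values, and deposited these estimated counts, rounded and unnormalized, in 1 table per batch. Identifiers in both tables (49477) were joined; 574 and 1596 were in 1 table only. Groups and batches came from the labels.

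Genes whose mean reached 10 counts were fitted with edgeR 4.0.16 (R 4.3.3; quasi-likelihood, TMM, batch and group, 28 mice), with Benjamini-Hochberg adjustment over 16266 genes and a threshold of 0.05. Levels across mice were log2 CPM (prior count 2), with batch removed by limma 3.58.1. Relations used 100000 two-sided permutations within batch and group. Between mice of a batch and group, no pair of libraries agreed within sampling noise. Scripts were tested on simulated data. Gene models were GENCODE M21. The counting error of a gene follows from its own count in each mouse.

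The members and gene lists were chosen with earlier results of these data known. Genes named besides the members were drawn, though not all named, from those of each list with an unadjusted p under 0.05 or the highest 2 mean counts, and those most like or opposed to *Klf2*; *Mapk7*, *Fkbp5* and *Gm10282* were named after their values were seen. The Acute count of the *Klf2* target list at an unadjusted p is not reported here. Alternatives were DESeq2 1.42.0, ComBat-seq (sva 3.50.0) then DESeq2, RLE and upper quartile normalization, no filter, a mean of 100 counts, each batch alone, only the compared groups, a replicate block, leaving out each mouse and, added after seeing the data, GC content and length offsets.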

Additional observations from a re-analysis of the deposited data

How the results depend on the processing

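In the 3 comparisons, *Klf2* kept its direction under every alternative listed above and without any 1 mouse. Its log2 fold change ran from 0.26 to 0.42 for Acute against Water, 0.45 to 0.55 for Chronic against Water and 0.10 to 0.29 for Chronic against Acute, and from 0.30 to 0.36, 0.51 to 0.56 and 0.18 to 0.23 with 1 mouse left out. The count of other members past the threshold was 0 under each alternative and without any 1 mouse, among the members with an adjusted p. DESeq2 with batch gave none for *Klf4* against Water in either group, and ComBat-seq then DESeq2 gave none for *Klf4*, *Klf5* and *Klf15* in Chronic against Water. Values of members that did not pass changed sign as follows. With ComBat-seq then DESeq2, *Klf12* was at 0 for Chronic against Water. In the first batch alone, *Klf5* and *Klf15* were at 0.053 and 0.01 for Acute against Water; *Klf6*, *Klf12* and *Klf15* at -0.032, 0.173 and 0.077 for Chronic against Water; and *Klf6*, *Klf10* and *Klf15* at -0.066, 0.028 and 0.067 for Chronic against Acute. In the second batch alone, *Klf7* was at 0.001 for Acute and *Klf3* and *Klf7* at 0.006 and 0.039 for Chronic against Water, and *Klf12* at -0.001 for Chronic against Acute. With GC content and length offsets, *Klf5* was at 0.002 for Acute and *Klf3* at 0.03 for Chronic against Water. The cause was not tested. With 1 mouse left out, signs also changed within -0.039 to 0.031 (*Klf5*), -0.054 to 0.016 (*Klf15*) and -0.055 to 0.014 (*Klf9*) for Acute against Water; within -0.026 to 0.012 (*Klf3*), -0.039 to 0.006 (*Klf7*) and -0.065 to 0.033 (*Klf12*) for Chronic against Water; and within -0.08 to 0.004 (*Klf10*), -0.001 to 0.046 (*Klf13*) and -0.075 to 0.005 (*Klf15*) for Chronic against Acute.

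Replicate numbers recur between groups in the second batch. Of 16 same-numbered pairs, 4 correlated above 0.1 (r from -0.359 to 0.366). A pairing by number was not evident from these values, which cannot exclude one, and the mice were fitted as unpaired. A replicate block gave *Klf2* values of 0.34, 0.54 and 0.20 and, for *Klf9* in Acute against Water, 0.016, and it changed no call. The filter at a mean of 100 counts left out *Klf4*. At 43 to 116 counts per mouse, *Klf4* had the fewest counts of the members, and its interval for Chronic against Water runs from 0.09 to 0.55.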
